A study of Oryza sativa with 8 samples.

Results

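In roots of dark-grown rice seedlings, 162 of the 57258 probe sets on the array read at least 2-fold higher in ethylene than in air in wild type (WT), while the difference stayed under set limits in roots of the mhz7 mutant and in WT shoots. They are the members described here. The members were chosen by the measured signals of 6 arrays, both root pairs and the WT shoot pair. A probe set was taken when its log2 difference, ethylene minus air, was 1 or more in WT root with a higher signal of at least 200, under 0.5 in mhz7 root and under 1 in WT shoot. WRKY, NAC, IAA and ARF genes and 12 genes listed by name were left out, which removed 10 probe sets of 9 genes. The members make up 69.2% of the 234 rises in WT root. Of the remaining rises, 34 failed only the mhz7 limit, 27 only the shoot limit and 1 both.

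RNA from 8 samples was read on Affymetrix rice arrays, and each pairing of genotype (WT or mhz7), organ (root or shoot) and gas was represented by 1 array. Seedlings 3 days old were kept in the dark at 28 °C and were given 10 ppm ethylene over 8 h, and controls were kept in air. All 8 groups share the germination, 2 days in water in the dark at 37 °C. The sources used here do not give the strain background, the lesion of mhz7 or the number of seedlings per sample. With 1 array in each group a difference between 2 arrays has no replicate check, and precision is limited by so few arrays.

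Ethylene is a gaseous hormone that binds receptors in the endoplasmic reticulum. Binding switches off a kinase that otherwise holds EIN2 inactive, and EIN2 then passes the signal to EIN3-type transcription factors (EIL proteins in rice), which turn on target genes. In etiolated rice seedlings ethylene is known to inhibit root growth while it promotes growth of the coleoptile. The gene table gives MHZ7 as a synonym of EIN2.

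The EIN2 probe set does not check the mutant's label, since the lesion is not known here, and it was not low in mhz7. Its scaled signal was 1649 in WT root in air and 1064 in ethylene, 2792 and 2462 in mhz7 root, 859 and 747 in WT shoot, and 1532 and 1574 in mhz7 shoot. Each mhz7 array read higher than the WT array of the same organ and gas. Of the 17 genes of ethylene perception and signalling looked for by name, 8 were found on the array. In WT root 1 of them rose 2-fold and 0 fell. The one that rose is the receptor gene ETR2, which the list of omitted names holds, and none of the 8 is a member.

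Organ labels were checked against marker genes. All 12 root markers found on the array and all 6 shoot markers were at least 2-fold brighter in their own organ in WT in air. In mhz7 HAK1 and HAK16 were not. HAK1 read 4347 and 2793 in mhz7 root against 3385 and 2359 in mhz7 shoot, air before ethylene. HAK16 read 2373 and 864 against 1611 and 1152, so in ethylene it was brighter in shoot. AMT1-2 was dim in mhz7, at 113 and 84.4 in root against 46.4 and 37.9 in shoot. Root markers on the shoot arrays summed to 4.54 to 7.55% of their root signal, and shoot markers on the root arrays to 4.55% in WT in air, 1.86% in WT in ethylene, 1.25% in mhz7 in air and 0.492% in mhz7 in ethylene. The actin controls, whose 3′ over 5′ ratio increases with RNA degradation, gave a ratio that lay between 18.3 and 28.1 on 7 arrays and was 35.6 for mhz7 shoot in ethylene.

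The 162 probe sets belong to 98 genes in 108 cases, and 54 have no gene listed. Of the 98 genes, 96 are protein coding and 12 carry a gene name beyond a locus number or a clone name. The remaining genes are printed by locus number, and no role is given for them. The median member signal was 255 in WT root in air and 643 in WT root in ethylene. It was 197 and 163 in mhz7 root, 247 and 241 in WT shoot, and 256 and 230.1 in mhz7 shoot. Values under 100 are counted as 100 (the floor) in every difference, and 18 members were under it in WT root in air, so their rise is a lower bound. In bulk RNA, fewer cells of a type and less RNA per cell cannot be told apart.

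**Figure D1:**
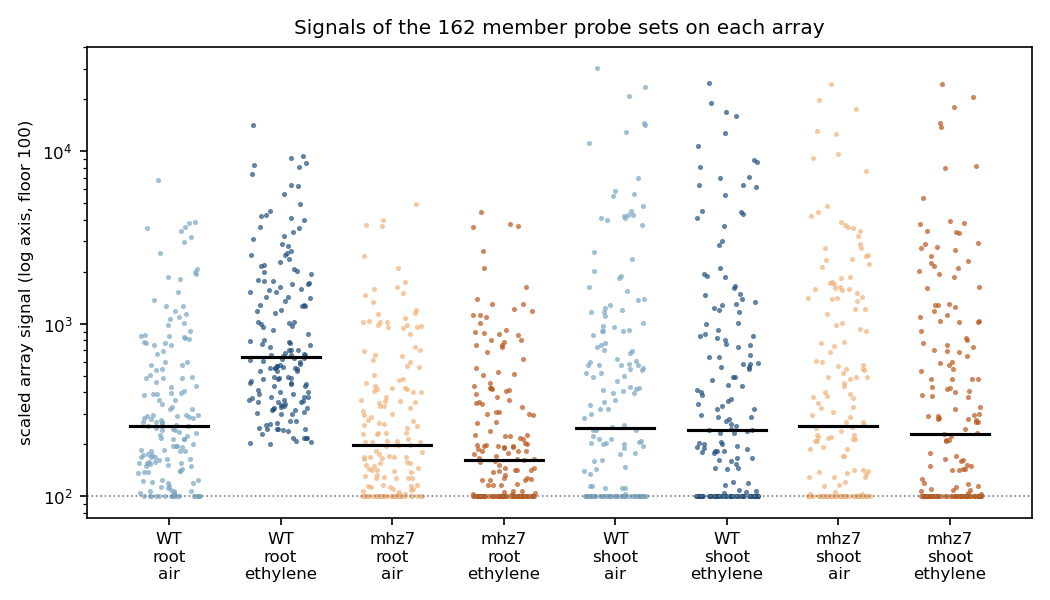
Each point is 1 of the 162 member probe sets, placed by its scaled signal (log axis, values under 100 drawn at 100) on each of the 8 arrays, and the black line is the median. The median is 643 for WT root in ethylene and between 163 and 256 on the other arrays.

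The rise in WT root, which chose the members, had a median of 1.24 on the log2 scale and ranged from 1.002 to 4.88. For scale, 0.409% of all probe sets rose in this pair and 0.393% fell. Of the members, 98 rose less than 2.5-fold, 31 rose at least 3-fold and 18 at least 4-fold. At the lower edge, LOC4334847 (1.002), LOC4346438 (1.0037) and LOC4324194 (1.0051) were just inside, and LOC4334487 (0.9993), LOC4327611 (0.9984) and a probe set with no gene (0.9977) were just outside. Values ran on across the threshold without a gap.

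The steepest rise belonged to a probe set with no gene listed. It read 123 in WT root in air and 3621 in ethylene, a 29.4-fold difference, and 60.1, 49.3, 68.2, 92.8, 91.0 and 65.6 on the mhz7 root, WT shoot and mhz7 shoot arrays (air before ethylene). All 6 of those arrays lie under the floor. Another 7 members were above the floor in WT root in ethylene and on no other array. Across the members, 110 were brightest on the WT root ethylene array, and 75 read there at least 2-fold above each of the other 7 arrays, counted from the floor up. On the whole array 92 probe sets read at least 2-fold above each of the others there. The rule chose members by a high reading on this array, so these counts largely describe the choice. For the 110, the share of all probe sets was not counted.

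Among members with a gene, LOC4326518 rose most. Its signal was 296 in WT root in air and 2015 in ethylene (6.82-fold), 287 and 171 in mhz7 root, 577 and 441 in WT shoot, and 1587 and 748 in mhz7 shoot. It thus rose in WT root alone and was lower in ethylene on the other 3 pairs. LOC4342313 followed with 255 and 1689 in WT root (6.63-fold), 377 and 329 in mhz7 root, 85.8 and 187 in WT shoot and 253 and 108 in mhz7 shoot. Its shoot pair moved up by at least 0.90 in WT, a lower bound since the air signal there was under the floor, and down by 1.23 in mhz7. Before the floor was applied, the WT shoot signals of LOC4342313 differed by more than 2-fold, so it met the shoot limit only through the floor. LOC4342314, the gene next to it on the chromosome, rose as well, by 1.95 and 2.13 on its 2 probe sets. LOC4342528 read 602 and 3081 in WT root (5.12-fold) and no more than 272 on each mhz7 or shoot array.

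Other steep rises differed in where else the transcript was found. LOC9271323 went from 104 to 563 on 1 of its 2 probe sets (5.44-fold), LOC107277424 from 284 to 1534 (5.41-fold) and LOC4327925 from 257 to 1272 (4.95-fold). LOC4325984 went from 408 to 1987 (4.87-fold) and read 661 and 865 in mhz7 root, above WT root in air. LOC4341171 went from 124 to 557 on 1 probe set and from 124 to 528 on the other. In WT shoot these 2 probe sets read 29.3 and 154, and 26.5 and 99.8, and in mhz7 root both were under 100. LOC4341335 and LOC4341704 rose 4.47-fold and 4.30-fold in WT root, yet their highest signals were in shoots. LOC4341335 read 320 and 1430.4 in WT root, 61.5 and 74.8 in mhz7 root, 6949 and 6382 in WT shoot and 2497 and 2755 in mhz7 shoot. LOC4341704 read 215 and 924 in WT root against 2017 and 2850 in WT shoot. Among genes at the floor in WT root in air, LOC4334817 was at least 2.72-fold, LOC4343504 at least 2.47-fold and LOC4336765 at least 2.46-fold higher in ethylene.

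The 12 named genes fall into hormone and isoprenoid synthesis, transcription factors, transport, and metabolism with defence. The names come from the gene table, whose entries give no product descriptions. Since only 3 of the 98 genes matched the functional words prepared for grouping, no group counts are given.

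GA20OX2, also listed as SD1, encodes a gibberellin 20-oxidase, an enzyme of gibberellin synthesis whose loss gives semi-dwarf rice. It read 186 in WT root in air and 376 in ethylene (2.02-fold), 145 and 142 in mhz7 root, 466 and 489 in WT shoot, and 249.7 and 245 in mhz7 shoot. In WT the root signal in ethylene stayed below both shoot signals. DXPS bears the name of 1-deoxy-D-xylulose 5-phosphate synthase, the entry enzyme of plastid isoprenoid synthesis. Its values were 539 and 2268 in WT root (4.21-fold), 963 and 374 in mhz7 root, 728 and 365 in WT shoot, and 1433 and 1019 in mhz7 shoot. Its rise in WT root stands against lower signals in ethylene on the other 3 pairs. ASMT3, named for acetylserotonin methyltransferase of melatonin synthesis, read 120.4 and 245 in WT root, 229.9 and 266 in mhz7 root, and under 50 on every shoot array. The mhz7 root signal in air was close to the WT root signal in ethylene.

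Among regulators, WOX6, a WUSCHEL-related homeobox gene of plant development, read 234 and 679 in WT root (2.90-fold), 97.4 and 127 in mhz7 root, and no more than 86.0 in shoots. It was a root transcript, higher in WT than in mhz7 in both gases. JAMYB, a MYB factor gene known for its jasmonate response in rice, read 268 and 633 in WT root (2.37-fold), 169.8 and 199 in mhz7 root, and between 144 and 201 in shoots. LOC4348646 is listed both as the heat shock factor gene HSFA2C and as ARD1, an acireductone dioxygenase gene of the methionine salvage cycle that supplies ethylene synthesis. The table classes the locus as a transcribed pseudogene and does not settle which product its probe set reads, and a further probe set of this locus read 110.3 and 114 in WT root. The member probe set read 690.2 and 1769 in WT root (2.56-fold), 297 and 299.7 in mhz7 root, 1548 and 3004 in WT shoot, and 1690.0 and 1042 in mhz7 shoot. With 0.96 in WT shoot it lay just under the shoot limit.

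Of the transport genes, AMT2-2, an ammonium transporter gene, read 214 and 463 in WT root (2.16-fold), 208 and 183 in mhz7 root and under 70 on every shoot array. HAK17, a potassium transporter gene of the HAK family, read 222 and 534 in WT root (2.41-fold), 247 and 162 in mhz7 root, 586 and 203 in WT shoot and 1403 and 829 in mhz7 shoot. ABCG44, an ABC transporter gene, read 279.8 and 657 in WT root (2.35-fold), 182 and 165 in mhz7 root, 283 and 286 in WT shoot, and 545 and 416 in mhz7 shoot. In shoots AMT2-2 was under the floor, and HAK17 was brighter in mhz7 shoot than in any root.

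GSTU6, a tau-class glutathione S-transferase gene of detoxification, was the brightest of the named genes. It read 3634 and 9177 in WT root (2.53-fold), 1333 and 1387 in mhz7 root, 11161 and 10696 in WT shoot and 9160 and 8253 in mhz7 shoot. In ethylene WT root approached the shoot signal, whereas mhz7 root stayed below WT root in air. TPP7, a trehalose-6-phosphate phosphatase gene known in rice for germination under water, read 115 and 272 in WT root (2.36-fold), 407 and 352 in mhz7 root, 551 and 821 in WT shoot, and 377 and 427 in mhz7 shoot. For TPP7 both mhz7 root signals exceeded both WT root signals. The chitinase gene LOC4351188, whose product degrades fungal cell wall chitin, read 432 and 877 in WT root (2.03-fold), 698 and 503 in mhz7 root, 320.1 and 274 in WT shoot, and 488 and 292 in mhz7 shoot.

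**Figure D2:**
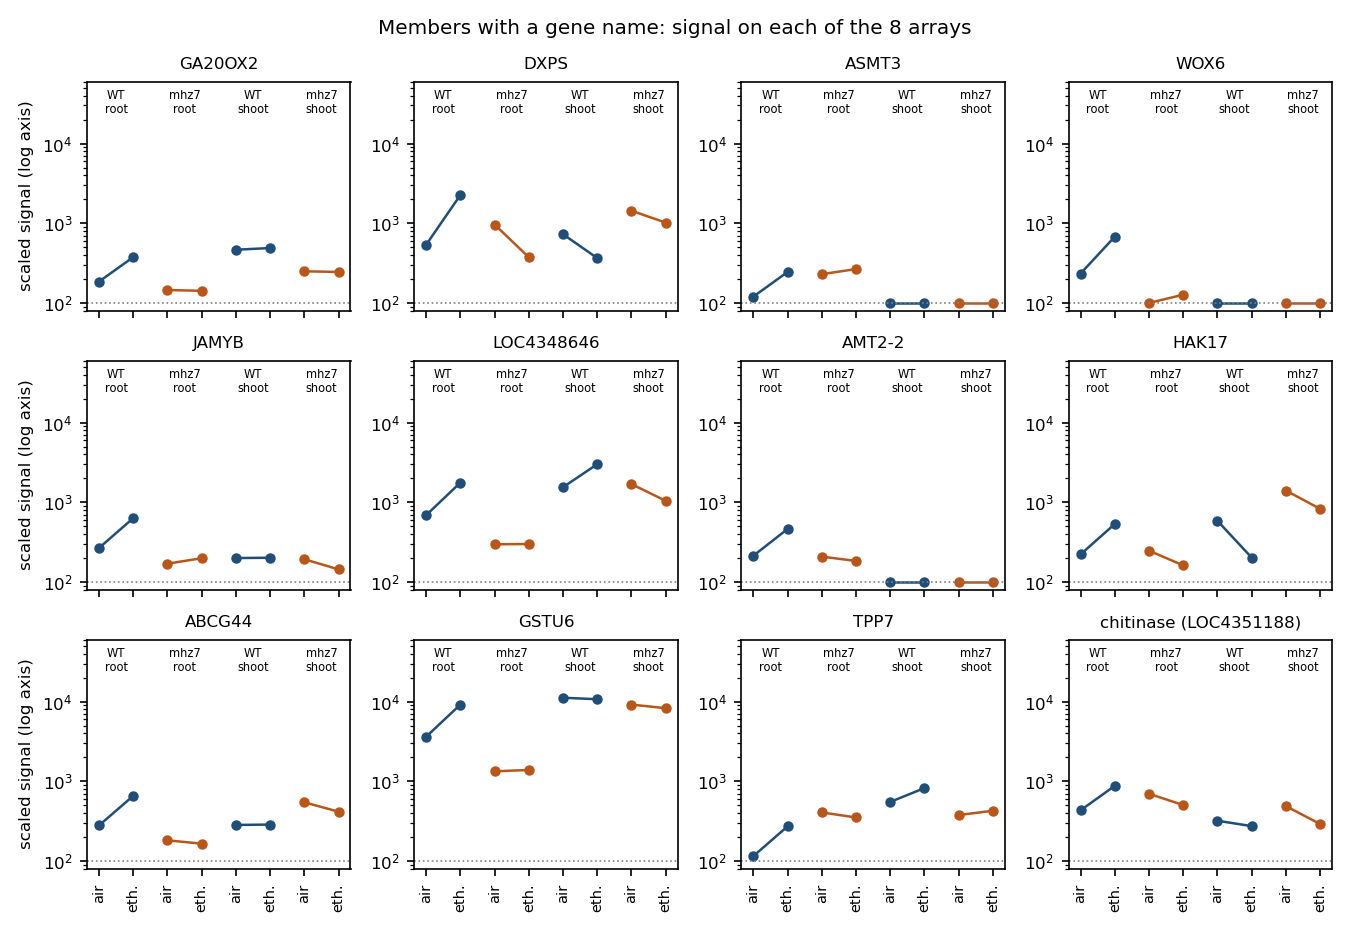
Each panel shows 1 of the 12 members with a gene name by its scaled signal (log axis, floor 100, dotted) on the 8 arrays, with a line from air to ethylene (eth.) for each genotype and organ, WT in blue and mhz7 in orange. All 12 lines rise in WT root, and GSTU6 reaches 9177 there against 1387 in mhz7 root.

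Some genes had more than 1 probe set, which read the same RNA and are no replicates. Of the 98 genes, 31 had several probe sets and 7 had several members. LOC4338151 had 5 members among its 6 probe sets, with rises of 1.10 to 1.50 in WT root, while the remaining one went from 583 to 481. LOC4341171 (2.09 and 2.17) and LOC4340075 (1.24 and 1.25) had close values on their probe sets. LOC9271323 had 1.29 and 2.44, the 1.29 being a lower bound, since that probe set read 60.6 in WT root in air. Of the 31 probe sets of member genes that are not members, 11 read at least 200 in WT root, with a median difference of 0.69. Of these 11, 7 were over 0.5 and 1 was below 0. Just 1 was at 1 or more, a probe set of LOC4343479 with 1.33, which failed the mhz7 limit with 0.585 in mhz7 root. The other probe set of HAK17 had 0.51 in WT root, and that of LOC4334035 had 0.32. Among the members, 11 probe sets carry the array's suffix for several transcripts (_s_at) and 12 the one for possible cross-hybridization (_x_at), so near-identical genes cannot be told apart there.

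Some member genes lie close together on the chromosomes. Counting at most 4 genes between them, 8 pairs comprised 15 genes, and 3 pairs were direct neighbours. GSTU6 and LOC4349210 are 1 such pair, with rises of 1.34 and 1.21. LOC4342313 and LOC4342314 are another. LOC4343026 and LOC4343027 are the last, and had similar values on all 4 pairs of arrays: they rose 2.30-fold and 2.18-fold in WT root, and the log2 differences were -1.10 and -0.99 in mhz7 root, -1.98 and -2.03 in WT shoot and -0.35 and -0.52 in mhz7 shoot.

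In mhz7 root the members had a median ethylene difference of -0.04, with 133 within 0.5 in either direction, 29 at -0.5 or lower and a highest value of 0.45. The limit of 0.5 was part of the rule, so these values describe the choice. Among them 12 fell 2-fold and none rose, where 0.339% of all probe sets fell and 0.124% rose, and 36 were under the floor on both arrays. In WT shoot 115 members lay within 0.5 in either direction, 28 lay between 0.5 and 1 and 19 at -0.5 or lower. These 28 were also higher in ethylene in WT shoot and are members because the limit there, applied after the floor, was 1. Nearest to it were LOC4336447 (0.98), LOC4348646 (0.96), LOC4328047 (0.94), LOC4326500 (0.93) and LOC4341476 (0.92). Where WT shoot in air was under the floor, the value is a lower bound. LOC4326500 read 78.6 in air and 190 in ethylene there, LOC4330974 64.7 and 167, and LOC4340506 86.6 and 182. LOC4341171 read 29.3 and 154 on 1 probe set. Like LOC4342313, these differed by more than 2-fold in WT shoot before the floor was applied. Of the 115, 42 were under the floor on both WT shoot arrays. In this pair 8 members fell 2-fold and none rose, where 0.526% of all probe sets fell and 0.204% rose. Between these arrays the actin ratio went from 18.3 to 28.1 and root markers from 6.23 to 4.54% of their root signal, and their part in the falls was not tested.

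Together 18 members fell in mhz7 root or in WT shoot, for which the share of all probe sets was not counted. LOC4337246 was the one that fell in both and in mhz7 shoot as well: it read 392 and 799 in WT root, 425 and 124 in mhz7 root, 921 and 206 in WT shoot and 1572 and 591 in mhz7 shoot.

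**Figure D3:**
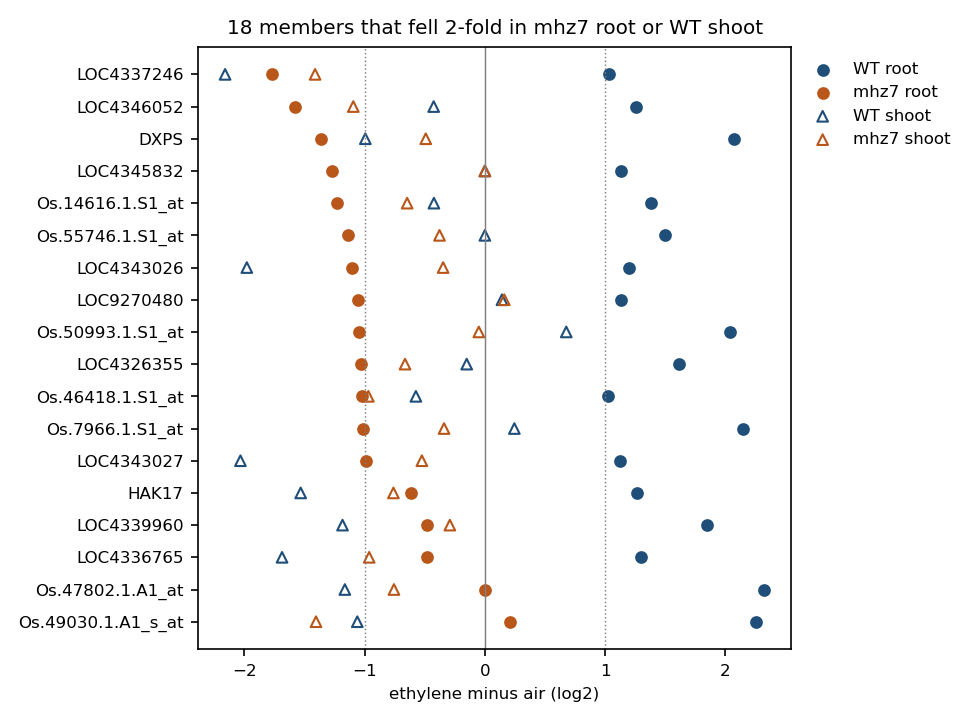
Each line of the plot is 1 of the 18 members that fell 2-fold in mhz7 root or WT shoot, named by gene or, with none listed, by probe set, and the horizontal axis is the log2 difference, ethylene minus air. Circles are roots and triangles shoots, WT in blue and mhz7 in orange, and the WT root circles all lie right of 1 while LOC4337246 lies left of -1 in the other 3 pairs.

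The mhz7 shoot arrays are the pair that the rule did not use. No member rose 2-fold there and 7 fell, which is 4.32% of the members, where 0.0279% of all probe sets rose and 0.199% fell. The highest member value was 0.44 (a probe set of LOC4334035, from 481 to 654). The gene's other probe set, not a member, went from 7935 to 7778. The median of the members was 0. Over the members with a mean signal of at least 200 it was -0.08, beside 0.02 over all probe sets of that mean signal. LOC4337246 fell from 1572 to 591, LOC4325628 from 2382 to 904 and LOC4342313 from 253 to 108. LOC4346052 fell from 4791 to 2245, LOC4326518 from 1587 to 748, and 2 probe sets with no gene from 380 to 143 and from 1217 to 579. All of these 7 but LOC4342313 and the probe set that fell to 143 were brighter in mhz7 shoot than in mhz7 root in both gases. On this pair the actin ratio went from 25.7 to 35.6 and root markers from 7.55 to 5.27% of their root signal, and their part in the falls was not tested.

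**Figure D4:**
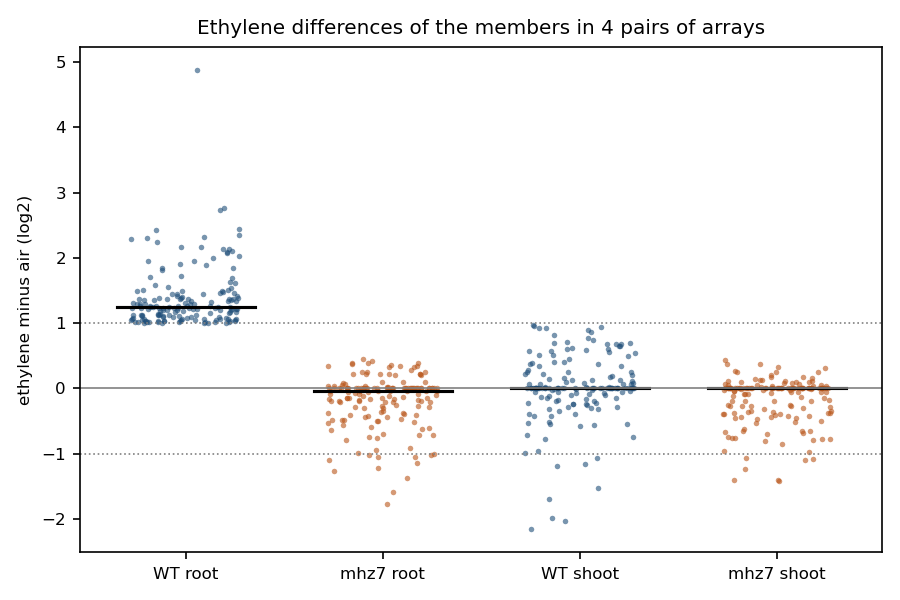
Each point is 1 of the 162 members, placed by its log2 difference, ethylene minus air, in WT root, mhz7 root, WT shoot and mhz7 shoot, with the median as a black line and dotted lines at 1 and -1. The WT root values start at 1 and the mhz7 root and WT shoot values end below 0.5 and 1 because the rule set those limits, whereas mhz7 shoot was not used and ends at 0.44.

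Most members also read lower in mhz7 root than in WT root among the controls kept in air. In air 108 of the 162 read lower in mhz7 and 39 higher, with 15 under the floor on both arrays, and the median difference was -0.29, where that of all probe sets was 0. By 2-fold, 20 members (12.3%) were lower and 3 higher, while 0.643% of all probe sets were lower and 0.725% higher. The rule favours probe sets that read low in WT root in air, so this pair is not independent of it and no test is given. With a floor of 200 the median was 0. Between these arrays the summed signal of the 12 root markers went from 173939 in WT to 131013 in mhz7, and the shoot markers from 4.55 to 1.25% of their shoot signal. Their part in the difference was not tested.

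Examples of the 20 are named here after their values were seen. LOC4332910 read 1866 in WT root in air and 165 in mhz7 root in air, and 4282 against 128 in ethylene. In shoots its signals were 774 and 663 in WT shoot, against 546 and 476 in mhz7 shoot, so the genotypes lay closer there than in root. LOC4349210, the neighbour of GSTU6, read 1812 against 480.1 in air, and GSTU6 3634 against 1333. A probe set with no gene read 844 against 93.4 in air and 1943 against 39.6 in ethylene, and no more than 41.8 in any shoot. The 3 exceptions that were 2-fold higher in mhz7 root in air were TPP7 (1.82), LOC4346052 (1.61) and a probe set with no gene (1.08).

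In ethylene 149 members were 2-fold lower in mhz7 root than in WT root, and none higher, where 1.79% and 1.31% of all probe sets were, but the WT array of this pair chose them. All 20 members lower in air were also lower in ethylene, and none was higher in both gases, where 0.547% and 0.618% of all probe sets were. The rule fixes this for the 20, since it asked for 1 or more in WT root and under 0.5 in mhz7 root. It also works against a member being higher in both gases, so nothing is drawn from these counts. In 114 members both mhz7 root arrays read below WT root in air, counted on signals without the floor. The share of all probe sets was not counted, and the rule limited the mhz7 root rise, so nothing is drawn from this count.

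Genotype in shoots was tested with limma over the air and ethylene pairs, since the mean of both gases was not what the rule used. Of the 162 members, 109 had the mean signal of at least 200 that the fit required. That mean includes the WT root ethylene array that chose them, and 6 of the 109 were under the floor on all 4 shoot arrays, so they could show no difference. The rule also limited the WT shoot ethylene difference, which enters the residual of this fit. No member and none of the 21444 probe sets passed an adjusted p of 0.05 (percent called 0). At an unadjusted p under 0.05, 22 of the 109 members were higher in mhz7 shoot and 31 lower, where 12.6% and 13.3% of all probe sets were, and nothing is drawn from these counts. With a floor of 50 in place of 100, 18 members passed the adjusted threshold, 8 higher and 10 lower, where 1.38% and 1.17% of all probe sets were. The fit has 1 residual degree of freedom, and leans on the spread shared across probe sets.

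By 2-fold in single pairs, 14 members were higher and 9 lower in mhz7 shoot in air, where 0.714% and 0.451% of all probe sets were. In ethylene 13 were higher and 21 lower, where 1.09% and 0.854% were. In both gases 8 were higher and 8 lower, beside 0.489% and 0.349% of all probe sets. LOC4339960 differed most, with 544 and 240 in WT shoot against 3602 and 2943 in mhz7 shoot. LOC4346052 read 754 and 561 in WT shoot against 4791 and 2245, a mean log2 difference of 2.33 (SE 0.21, limma adjusted p = 0.112). LOC4331044 was higher in mhz7 shoot by 1.50 (SE 0.092, limma adjusted p = 0.105), LOC4351195 by 1.49 (SE 0.12, limma adjusted p = 0.109) and LOC4326146 by 1.27 (SE 0.11, limma adjusted p = 0.109). None of them passed the threshold, and each was higher in 2 of 2 pairs.

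On the lower side, LOC4340313 read 498 and 543 in WT shoot against 189 and 212 in mhz7 shoot, a difference of -1.38 (SE 0.059, limma adjusted p = 0.105). The difference of GA20OX2 was -0.95 (SE 0.064, limma adjusted p = 0.106), that of LOC4326149 -1.10 (SE 0.073, limma adjusted p = 0.105) and that of LOC4341335 -1.34 (SE 0.098, limma adjusted p = 0.109). All 3 were lower in 2 of 2 pairs. By 2-fold, 4 member genes were lower in mhz7 in both organs and both gases: LOC4341335, LOC4326149, LOC4343479 and LOC4341476. The share of all probe sets was not counted for this. The rule bears on both root pairs, so nothing is drawn from the count. LOC4341476 read 2581 and 5635 in WT root, 977 and 1004 in mhz7 root, 4276 and 8096 in WT shoot, and 1617 and 2029 in mhz7 shoot.

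The members included shoot-bright and root-bright transcripts. The rule favours a low reading in WT root in air and used both mhz7 root arrays, so the counts by organ are descriptions. In WT in air 50 were 2-fold brighter in shoot and 32 in root, where 6.17% and 4.62% of all probe sets were. In ethylene, on the array that chose the members, 98 were brighter in WT root and 24 in WT shoot, where 5.47% and 5.7% of all probe sets were. In mhz7 in air 22 were brighter in root and 56 in shoot, where 5.22% and 6.07% of all probe sets were. In mhz7 in ethylene 20 were brighter in root and 52 in shoot, where 5.49% and 6.07% were. In mhz7, in both gases, 48 were brighter in shoot and 15 in root, where 5.53% and 4.42% were. Over 10-fold, 12 members were brighter in shoot in WT in air and 2 in root, where 1.11% and 0.452% of all probe sets were. Every shoot array read above WT root in ethylene for 27 members, and 34 were under the floor on all 4 shoot arrays. The shares of all probe sets were not counted for these, and nothing is drawn from them. On each single shoot array between 52 and 53.1% of all probe sets were under the floor.

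The organ difference in mhz7 was fitted with limma over its air and ethylene pairs. The rule limited the mhz7 root ethylene difference, which enters the residual of this fit. Of 109 members tested, 65 were lower in root and 31 higher at an adjusted p of 0.05, where 25.9% and 40.6% of the 21444 probe sets were. At an unadjusted p under 0.05, 67 were lower and 31 higher, where 27.1% and 43.1% were. A member can enter this fit through the organ where it is high, so the counts describe those tested, not all 162, and nothing is drawn from them. Without the filter on the mean signal 0 of the 162 passed, where 0.278% of the 57258 probe sets were higher and 0.281% lower, and 67 members had an unadjusted p under 0.05. Of the called members, 7 of the 31 and 7 of the 65 were under the floor on both arrays of the dimmer organ, so their difference is a lower bound, taken against the floor of 100, whose SE and p leave out the spread of that side.

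LOC4341335, under the floor in mhz7 root, was at least 26.2-fold lower there than in mhz7 shoot. GSTU6, above the floor on every array, differed by -2.68 on the log2 scale, mhz7 root minus mhz7 shoot (SE 0.092, limma adjusted p = 0.000156). LOC4324194 read 133 and 59.3 in mhz7 root against 2756 and 2766 in mhz7 shoot. Of the 5 member probe sets of LOC4338151, the brightest read 30163 and 24790 in WT shoot and 24427 and 24417 in mhz7 shoot. In root it read 2001 and 4939 in WT and 1498 and 1305 in mhz7. These shoot-bright members rose in WT root while the shoot markers on the root arrays fell from 4.55 to 1.86% of their shoot signal, and the part of shoot RNA in the rises was not tested.

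Root-bright members included a probe set of LOC4345573, with 1065 and 2193 in WT root, 1037 and 1215 in mhz7 root and 110.0 to 192 in shoots. Its difference in mhz7, root minus shoot, was 3.32 (SE 0.10, limma adjusted p = 0.000136). This probe set carries the suffix for possible cross-hybridization (_x_at), and the gene's other probe set, not a member, was not root-bright. That one read 195 and 315 in WT root and 257 and 346 in mhz7 root. In shoots it read 269 and 281 in WT and 359 and 367 in mhz7. LOC4326500, LOC9269196 and LOC9268076 were under the floor on both mhz7 shoot arrays and at least 7.3-fold, 4.1-fold and 3.6-fold higher in mhz7 root. A probe set with no gene had 3.73 (SE 0.14, limma adjusted p = 0.000179). In both mhz7 pairs these 5 were higher in root.

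**Figure D5:**
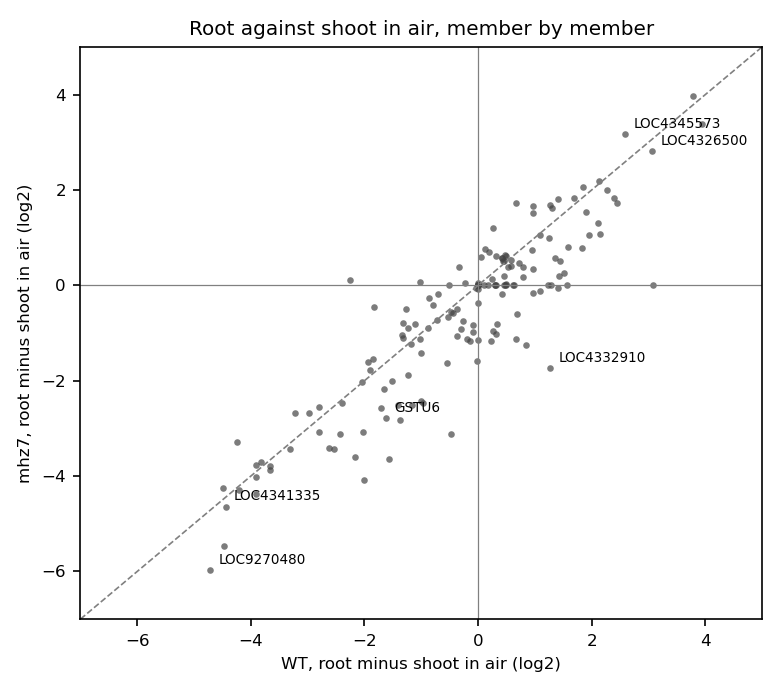
Each point is 1 of the 162 members, placed by its log2 difference, root minus shoot in air, in WT (horizontal) and in mhz7 (vertical), with the diagonal dashed. Members spread from -4.72 to 3.94 in WT and from -5.97 to 3.96 in mhz7, and LOC4332910 changes sides, with 1.27 in WT and -1.73 in mhz7.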

How the data were processed

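The authors deposited an intensity for each probe set of each array, not logged, and the submitters' processing notes name MAS5. The sources used here give no version, scaling target or detection calls for it. After 123 control probe sets were set aside, each array was multiplied to a mean of 500 without the highest and lowest 2%, values under 100 were set to 100, and log2 was taken. Genes came from the array gene table and RefSeq's table for the rice assembly ASM3414082v1, used for names and neighbours only. All 98 member genes matched it. A call between 2 arrays is a 2-fold difference with a higher signal of at least 200. The 2 limma fits (limma 3.58.1, R 4.3.3), across all 21444 probe sets with a mean signal of at least 200, used gas as a block, 4 arrays each, with Benjamini-Hochberg adjustment. The genotype fit was tried on simulated data with changes planted in mhz7 shoot, and the organ fit was not. The simulated spread was set and not taken from these arrays, so it does not show what the fit could find here. Other steps ran under Python 3.11.15 (pandas 2.3.3, numpy 2.4.6, matplotlib 3.10.9). The members, lists and tests were chosen with earlier results of these data known. Named genes are those with a gene name, the 12 largest rises, the largest bounds, those at the threshold and those leading each fit or called in mhz7 shoot, and further genes (chromosomal neighbours, those nearest the shoot limit, those leading a single pair) were named after their values were seen. The p-values measure the spread between pairs of single arrays. Alternatives changed scaling, floor, filter, threshold and model. No sequences are printed, since none were given.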

Additional observations from a re-analysis of the deposited data

Results flagged for a closer look

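Among the members, which rose 2-fold in WT root by rule, 18 fell 2-fold in mhz7 root or WT shoot. In mhz7 root 12 fell and in WT shoot 8, where 0.339% and 0.526% of all probe sets fell, and 2 members fell in both. For the 18 and the 2 the share of all probe sets was not counted, and nothing is drawn from these counts. The difference between the pairs was not tested, since each rests on single arrays, and the upper limits in mhz7 root and WT shoot were part of the rule.

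In mhz7 root the log2 difference was -1.77 for LOC4337246, -1.58 for LOC4346052, -1.37 for DXPS, -1.27 for LOC4345832, -1.10 for LOC4343026, -1.06 for LOC9270480 and -1.03 for LOC4326355. For 5 probe sets with no gene it was -1.23, -1.14, -1.05, -1.02 and -1.01. LOC9270480 read 549 and 1202 in WT root, 208 and 30.9 in mhz7 root, 14471 and 15968 in WT shoot, and 13065 and 14612 in mhz7 shoot.

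In WT shoot it was -2.16 for LOC4337246, -2.03 for LOC4343027, -1.98 for LOC4343026, -1.69 for LOC4336765, -1.53 for HAK17 and -1.18 for LOC4339960. For 2 probe sets with no gene it was -1.16 and -1.06. LOC4339960 read 544 and 240 in WT shoot against 390 and 1405 in WT root.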

How the results depend on the processing

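The number of member probe sets was 162 and lay between 114 and 184 with quantile normalization, no scaling of each array, a floor of 50 or 200, or limits of 0.25. Of the 162, quantile normalization kept 152 and a floor of 200 kept 115. At 3-fold 31 were left, and 94 with 1 probe set per gene, by construction. The median ethylene difference in mhz7 shoot was -0.068 with a floor of 50 and -0.084 for members of mean signal 200 or more, against 0. The median of mhz7 minus WT in root in air was -0.25 with quantile normalization, -0.39 with a floor of 50 and 0 with a floor of 200, against -0.29. Members called for genotype in shoot numbered 18 with a floor of 50 and 0 otherwise, and those called for root minus shoot in mhz7 were 0 without the filter, the cause of which was not tested, and 85 to 98 in the other 5 alternatives. Over all probe sets, genotype calls were 295 higher and 251 lower with a floor of 50 and 6 higher without the gas block, and organ calls 159 higher and 161 lower without the filter. Of 208 alternative values of WT root rises for the 52 probe sets of the named genes, 194 stayed past the threshold and 14 did not, among them GA20OX2, TPP7 and ASMT3 with a floor of 200 and the chitinase gene with quantile normalization. No paired analysis was possible because the labels give no replicate numbers, and the block in the limma fits is the gas, not a replicate.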
